A study of Danio rerio with 8 samples.

Results

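Collagens are the main structural proteins of animal matrix. Each molecule is built from 3 α chains, which are products of 1 gene or of several, depending on the type. The collagen genes of zebrafish were followed here by type in larvae mutant for the ciliary gene nphp8. They were taken as every row whose gene symbol, ignoring case, reads col, a type number, the letter a and a chain number, with at most 1 copy letter. Such a symbol was carried by 57 of 32520 genes, and 45 of them reached a mean of at least 1 TPM over the 8 libraries. TPM is a share of a library's transcripts corrected for gene length, so levels can be compared between genes, but it carries no read number and the depth is unknown. Fibrillar collagens were set as types I, III, V, XI and XXIV (11 genes), basement membrane collagens as types IV, VII, XV and XVIII (11 genes), notochord collagens as types II, VIII, IX and XXVII (7 genes), and all other types formed a group of 16 genes. No symbol of type III was found, and the only one of type XXVII, col27a1b, stayed below 1 TPM, so neither type is among the 45. Several symbols are human-style and shared by duplicated copies, which are told apart by their Ensembl identifier.

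RNA was sequenced from whole larvae 2 days old, in 4 libraries from controls and 4 from nphp8 mutants. The mutants were homozygous for the allele sa24730 and came from mutant mothers, so that the maternal and the zygotic copies were both mutant. The controls are labelled as wild type in the sample annotation and as siblings in the series design, and neither group was treated. Wild-type larvae cannot come from mothers homozygous for the allele, and siblings of the mutants from such mothers would carry it. If the controls were wild type, they therefore came from other mothers, and effects of the mutation and of parentage cannot be told apart. Which of the 2 labels holds is not settled by the sources used here. The sources used here do not say how many larvae or clutches made up a library, so p-values measure only how far these samples differ, and part of that may be technical. In whole larvae, fewer cells of a type and less RNA per cell cannot be told apart. Values per library are given in the order of replicates 1 to 4 throughout. The mutated gene, listed under its other name RPGRIP1L, had 2.75, 2.6, 2.26 and 2.17 TPM in controls and 0.75, 0.72, 0.77 and 0.78 TPM in mutants, so that every mutant library was below every control.

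As background, fibrillar collagens assemble into the cross-striated fibrils of skin, tendon, bone and cartilage, with types V and XI acting as minor partners that set the width of type I and type II fibrils. Type IV forms the sheet-like network of basement membranes, type VII anchors these sheets to the underlying tissue, and types XV and XVIII sit at their surface. The notochord, the embryonic axial rod, is stiffened by a sheath rich in types II and IX, and in zebrafish col8a1a is needed for its normal shape. Among the other types, VI forms beaded filaments around cells, XII, XIV, XVI and XXI bind to fibril surfaces, and XVII and XXIII span the cell membrane.

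Collagen transcripts made up a larger share of the libraries in the mutants, by small differences spread over many genes. In limma's moderated test on log2(TPM + 1), with p-values adjusted by the Benjamini-Hochberg method over 16560 genes and a call at an adjusted p under 0.05, 15 of the 45 collagen genes (33.3%) were higher in mutants and 1 was lower. Over all genes tested 9.32% were higher and 13.3% lower. That balance depended on the scaling: with median-of-ratios factors 11% of all genes were higher and 11.6% lower, and 11.1% and 10.8% when totals left out mitochondrial and the 50 most abundant genes. Under these scalings 18 and 16 collagens were higher and 1 was lower. The median log2 change was 0.08 over the collagens and -0.015 over all genes, and 38 of the 45 lay above 0. Of the 29 collagens not called, 9 changed sign in at least 1 alternative fit, so 38 is no count of rises. Changes ran from -0.34 for col28a2a to 0.53 for col17a1a. The 4 mutant libraries lay wholly above the 4 controls for 18 collagen genes, or 40%, against 11.3% of all genes, and wholly below them for 1, against 14.8% of all genes. Calls were commoner among abundant genes, and 20 of the 45 collagens had a mean of 20 TPM or more. At that level 9 of these 20 were higher, against 13.8% of all genes. Between 5 and 20 TPM 3 of 14 were higher, against 9.05%, and between 1 and 5 TPM 3 of 11, against 6.4%. With a pseudocount of 0.1 in place of 1 the count stayed at 15 of 45, against 9.22% of all genes, and with genes of any level tested it was 16 of all 57 symbols, against 5.53%.

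**Figure D1:**
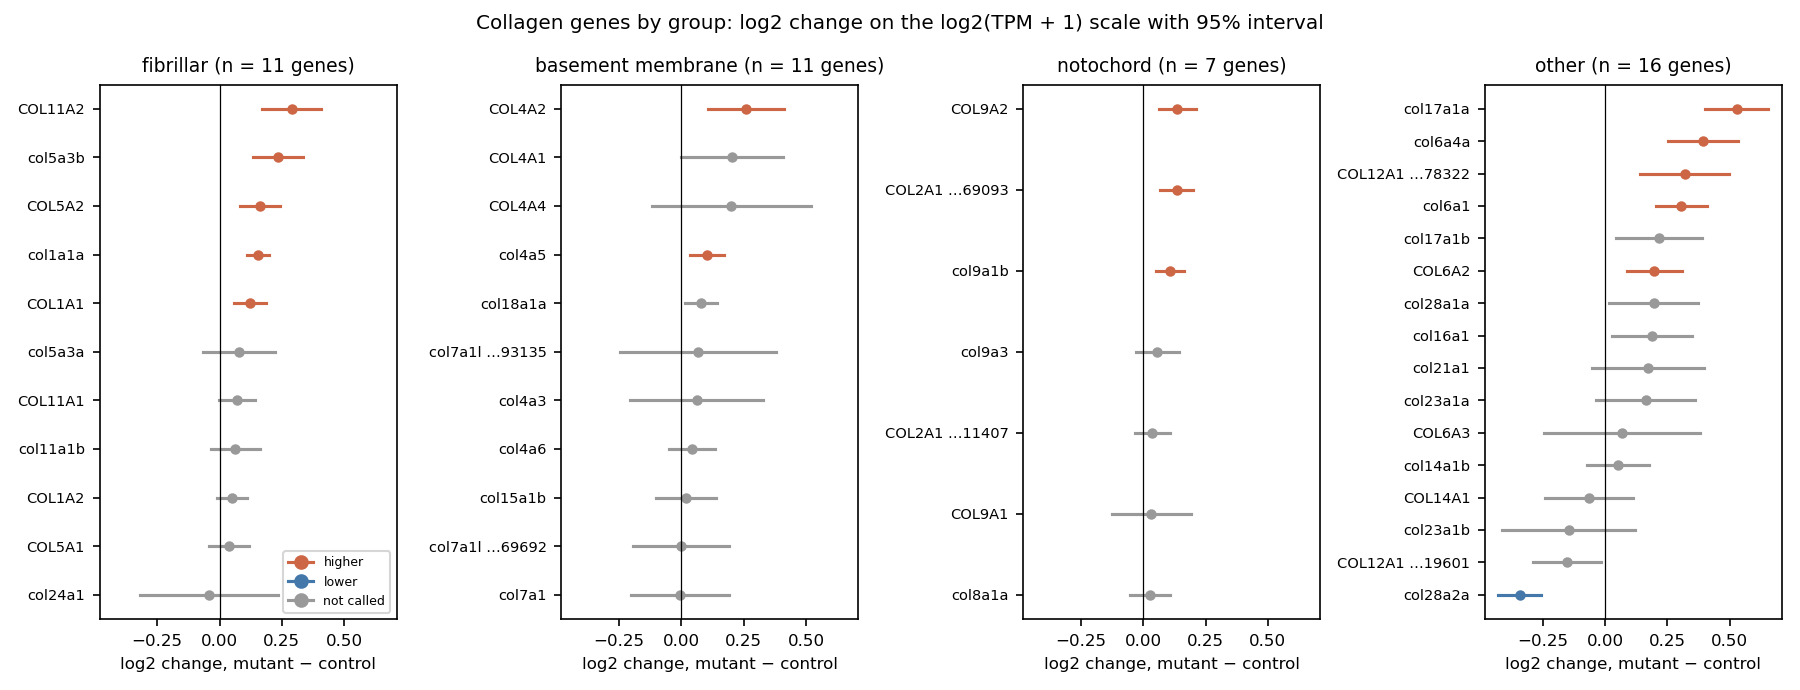
Log2 change of each collagen gene (mutant minus control, on the log2(TPM + 1) scale; points) with its 95% interval from limma (lines), by group; orange is higher, blue lower and grey not called at an adjusted p under 0.05, and copies that share a symbol carry the last digits of their identifier. 38 of the 45 points lie to the right of 0, col17a1a lies farthest right at 0.53, and col28a2a is the single gene called lower, at -0.34.

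By count, 5 of 11 fibrillar, 2 of 11 basement membrane, 3 of 7 notochord and 5 of 16 other collagens were higher. Over all genes 9.32% were higher, and in so short a list 2 of 11 is close to that share. The single lower gene was among the other types. The median log2 change was 0.08 in the fibrillar group, 0.06 in the basement membrane group, 0.06 in the notochord group and 0.18 in the other types. Whether the groups differ from each other was not tested. If types II and XXVII are counted as fibrillar and types VIII and IX as other, as their structure would have it, 6 of 13 fibrillar and 7 of 21 other genes were higher.

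The 45 genes together summed to 1814, 1764, 1821 and 1821 TPM in controls and to 1900.0, 1965, 1879.5 and 1997 TPM in mutants. All mutant sums were above all control sums. Their means were 1805 ± 27.8 and 1935 ± 55.0 TPM (SD over 4 libraries), with a ratio of 1.07. In controls these sums made up 0.181% of all transcripts. Fibrillar genes held 49.0% of collagen TPM in controls and 49.7% in mutants, and notochord genes 30.4% and 30.3%. The basement membrane genes held 10.3% and 10.2%, and the other types 10.3% and 9.81%. The fibrillar sum was 885 ± 12.8 TPM in controls and 962 ± 23.6 TPM in mutants, and the notochord sum 548 ± 10.6 and 587 ± 16.8 TPM. For these 2 groups the libraries did not overlap. The basement membrane sum was 186 ± 4.46 TPM in controls and 197 ± 8.07 TPM in mutants, and that of the other types 186 ± 5.50 and 189.8 ± 9.47 TPM, and in both of these the libraries overlapped. The mutant libraries were not alike: replicates 2 and 4 had the higher sum in all 4 groups. Averaged over the 45 genes, replicates 2 and 4 stood 0.040 and 0.037 above the mutant mean on the log2 scale, and replicates 1 and 3 stood at -0.027 and -0.050 against it.

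Type I collagen, the main fibril of skin and bone, was the most abundant. The α1 gene col1a1a (ENSDARG00000012405) had 313, 308, 309.9 and 317 TPM in controls and 344, 349, 343 and 353 TPM in mutants. Every mutant library was above every control, and the log2 change was 0.15 (SE 0.0194, limma adjusted p = 0.000419). The other α1-type gene, listed as COL1A1 (ENSDARG00000035809), stood at 166, 159.8, 166 and 167 TPM in controls and at 177, 180.4, 174 and 188 TPM in mutants. It was higher too, by 0.12 (SE 0.0288, limma adjusted p = 0.0125), again with no overlap, but did not pass without the trend over mean level (limma adjusted p = 0.053). COL1A2 (ENSDARG00000020007), the α2 chain, stood at 174, 169.8, 178 and 181 TPM in controls and at 181, 181, 179 and 187 TPM in mutants, where the groups overlapped. Its log2 change of 0.05 did not pass (limma adjusted p = 0.21), and its 95% interval ran from -0.01 to 0.11.

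Of types V and XI, the partners that co-assemble with types I and II, 3 of 7 genes were higher, against 9.32% of all genes. COL5A2 (ENSDARG00000031678) stood at 38.0, 39.0, 39.4 and 39.1 TPM in controls and at 42.5, 44.9, 41.4 and 45.8 TPM in mutants. Its groups were apart, with a log2 change of 0.16 (SE 0.0363, limma adjusted p = 0.0105). The α3 gene col5a3b (ENSDARG00000101816) stood at 40.5, 39.5, 41.9 and 39.2 TPM in controls and at 46.8, 47.9, 44.2 and 51.4 TPM in mutants, also without overlap, and rose by 0.23 (SE 0.0452, limma adjusted p = 0.00512). COL5A1 (ENSDARG00000012593), the chain found in most type V molecules, stood at 29.2, 28.9, 28.9 and 29.4 TPM in controls and at 28.8, 31.7, 29.1 and 30.1 TPM in mutants. These overlapped, and the log2 change of 0.04 did not pass (limma adjusted p = 0.474, 95% interval -0.04 to 0.12). The remaining type V gene, col5a3a, averaged 3.01 ± 0.257 and 3.23 ± 0.032 TPM and did not pass.

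Within type XI, COL11A2 (ENSDARG00000012422) had the largest change of the fibrillar group. It stood at 16.7, 15.8, 17.9 and 15.7 TPM in controls and at 19.4, 21.1, 19.5 and 21.6 TPM in mutants, with no overlap and a log2 change of 0.29 (SE 0.0525, limma adjusted p = 0.0036). The more abundant COL11A1 (ENSDARG00000026165) stood at 80.5, 81.4, 83.0 and 80.9 TPM in controls and at 82.8, 89.0, 82.3 and 88.6 TPM in mutants, which overlapped, and did not pass (limma adjusted p = 0.144), but passed under median-of-ratios scaling (limma adjusted p = 0.0452). Whether the 2 genes changed by different amounts was not tested. Its copy col11a1b was at 11.2 ± 0.136 and 11.7 ± 0.563 TPM and did not pass either. Type XXIV, a fibril-forming collagen known from bone in mouse, ranged for col24a1 from 9.55 to 15.1 TPM in controls and from 10.1 to 13.7 TPM in mutants. The replicates were widely spread, and the interval of its log2 change, -0.32 to 0.24, holds the changes of both type I α1 genes.

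Of the notochord types, the cartilage-type collagens II and IX were in part higher. The 2 type II genes share the symbol COL2A1. The more abundant copy (ENSDARG00000069093) stood at 148, 140.3, 151 and 152 TPM in controls and at 162, 163, 158 and 167 TPM in mutants. Its mutant libraries were all above the controls, with a log2 change of 0.13 (SE 0.0299, limma adjusted p = 0.0102). The other copy (ENSDARG00000011407) stood at 93.4, 88.7, 93.1 and 91.7 TPM in controls and at 91.3, 94.3, 91.8 and 99.1 TPM in mutants. It overlapped and did not pass (log2 change 0.04, limma adjusted p = 0.45, 95% interval -0.03 to 0.11).

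Type IX decorates type II fibrils and is assembled from α1, α2 and α3 chains. The α1 gene col9a1b (ENSDARG00000031483) stood at 133, 128, 130.1 and 129 TPM in controls and at 137, 142, 138 and 144 TPM in mutants, and the α2 gene COL9A2 (ENSDARG00000024492) at 81.8, 78.3, 83.0 and 80.8 TPM and at 86.4, 90.1, 86.5 and 93.7 TPM. Both had every mutant library above every control, with log2 changes of 0.11 and 0.14 (limma adjusted p = 0.0118 and 0.0145). Without the trend col9a1b did not pass (limma adjusted p = 0.0578). The α3 gene col9a3 (ENSDARG00000037845) stood at 61.4, 58.8, 59.8 and 59.4 TPM in controls and at 59.96, 63.3, 59.4 and 66.8 TPM in mutants, overlapped and did not pass (limma adjusted p = 0.327). The low α1 copy COL9A1 (ENSDARG00000073699) was at 5.29 ± 0.468 and 5.42 ± 0.402 TPM. The sheath collagen col8a1a (ENSDARG00000077403) stood at 30.4, 33.1, 33.6 and 31.7 TPM in controls and at 33.2, 32.7, 32.5 and 32.8 TPM in mutants. It did not pass (log2 change 0.03, limma adjusted p = 0.647), and its 95% interval ran from -0.05 to 0.11.

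Of 10 notochord marker genes tested 2 were higher and 0 lower, and their log2 changes had a median of 0.02. A count of 2 in so short a list is close to the 9.32% of all genes. Those called were epyc, at 32.0 and 41.8 TPM on average, and a CAVIN1 copy (ENSDARG00000059362), at 33.5 and 46.0 TPM, while the transcription factor gene tbxta was at 16.1 and 14.7 TPM and did not pass. The summed marker level was 269 to 276 TPM in controls and 286 to 301 TPM in mutants, without overlap. Most of that difference lay in epyc and the CAVIN1 copy, whereas CAV1, the most abundant marker, averaged 77.8 and 78.3 TPM. Cartilage markers gave 1 higher gene of 7 tested, also close to that share, a SOX9 copy (ENSDARG00000043923), with sums of 174 to 185 and 173 to 194 TPM. The part of either tissue in the type II and type IX values was not tested.

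Of the 11 basement membrane collagens 2 were higher, both of type IV. In so short a list that count is close to the 9.32% of all genes. The 6 type IV genes form 3 pairs of neighbours in the RefSeq gene table of assembly GRCz12tu, where col4a1 lies beside col4a2, col4a3 beside col4a4 and col4a5 beside col4a6, with 0 protein-coding genes between. In these larvae the α5 and α6 pair was the abundant one. The gene col4a5 (ENSDARG00000052063) stood at 59.8, 59.5, 60.1 and 59.95 TPM in controls and at 63.3, 67.0, 61.5 and 65.7 TPM in mutants. The groups did not overlap, and it was called higher, by 0.10 (SE 0.0306, limma adjusted p = 0.0357). The col4a5 call was lost in 9 of 16 alternative fits. Its neighbour col4a6 (ENSDARG00000052061) stood at 31.1, 31.3, 30.6 and 31.1 TPM in controls and at 32.0, 34.5, 30.0 and 31.6 TPM in mutants, overlapped and did not pass (limma adjusted p = 0.502).

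The α1 and α2 genes, whose products make up most basement membranes in mammals, were low. COL4A2 (ENSDARG00000104110) stood at 2.37, 2.0, 2.15 and 2.03 TPM in controls and at 2.81, 2.69, 2.57 and 2.94 TPM in mutants, without overlap, and was called higher, by 0.26 (SE 0.069, limma adjusted p = 0.0235). COL4A1 (ENSDARG00000055009) stood at 2.05, 1.94, 2.38 and 2.13 TPM in controls and at 2.54, 3.11, 2.14 and 2.65 TPM in mutants. It overlapped and did not pass (log2 change 0.20, limma adjusted p = 0.142). With a single library left out, the number of basement membrane collagens called higher was between 0 and 2, and it was 0 without control replicate 2 or 4 or mutant replicate 1 or 4, and 1 without control replicate 3 or mutant replicate 2. The α3 and α4 genes, at means of 1.32 and 1.86 TPM, did not pass. COL4A4 stood at 2.66 TPM in control replicate 1 and at 1.42, 1.48 and 1.2 TPM in the other controls, and passed without control replicate 1 (log2 change 0.36, limma adjusted p = 0.0181).

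The multiplexin col18a1a (ENSDARG00000036558), source of endostatin, stood at 51.4, 52.9, 52.8 and 52.1 TPM in controls and at 53.2, 56.8, 54.8 and 56.5 TPM in mutants. Its groups did not overlap, yet it did not pass as deposited (log2 change 0.08, limma adjusted p = 0.08). It passed after rescaling the libraries by median-of-ratios factors (limma adjusted p = 0.0225) or by totals that leave out mitochondrial and the 50 most abundant genes (limma adjusted p = 0.0321). The type VII genes col7a1 and both copies of col7a1l, which encode anchoring fibrils, were between 6.78 and 15.1 TPM in all libraries, and did not pass. Their log2 changes were -0.0045 for col7a1, 0.06 for col7a1l ENSDARG00000093135 and -0.0025 for col7a1l ENSDARG00000069692. The 2 col7a1l copies may share reads. Type XV, as col15a1b, was at 8.03 ± 0.48 and 8.14 ± 0.331 TPM.

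The widest changes were in the other types. The gene col17a1a (ENSDARG00000069415) encodes a membrane collagen of hemidesmosomes, which fasten basal epidermal cells to the basement membrane. It stood at 3.6, 3.53, 3.47 and 3.99 TPM in controls and at 5.83, 5.77, 5.43 and 5.76 TPM in mutants, a ratio of 1.56. The groups were far apart, with a log2 change of 0.53 (SE 0.0572, limma adjusted p = 0.000164). Its copy col17a1b (ENSDARG00000079011) stood at 1.7, 2.11, 1.98 and 2.21 TPM in controls and at 2.46, 2.52, 2.28 and 2.68 TPM in mutants, also without overlap, but did not pass (log2 change 0.22, limma adjusted p = 0.07). It passed without the trend over mean level (limma adjusted p = 0.03997). Among 6 tested epidermal markers, the integrin gene itga6b and the laminin gene lamb4 were higher, at 1.23-fold and 1.17-fold. The gene epcam was lower, at a ratio of 0.729, and krt5, krt4 and TP63 did not pass. Over all genes 9.32% were higher and 13.3% lower, and this list is short. The summed level of the 6 markers was 10844 to 11171 TPM in controls and 10503 to 10897 TPM in mutants. Nearly all of it was krt4, so the sum says little about basal cells. The part of epidermal cell number in the col17a1a value was not tested.

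Type VI, whose beaded filaments surround muscle fibres and other cells, was higher in 3 of 4 genes, against 9.32% of all genes. The gene col6a1 (ENSDARG00000074908) stood at 13.9, 12.9, 13.4 and 13.4 TPM in controls and at 16.5, 18.1, 16.5 and 16.1 TPM in mutants, a log2 change of 0.31 (SE 0.0455, limma adjusted p = 0.00117). COL6A2 (ENSDARG00000061436) stood at 6.74, 6.12, 6.49 and 6.38 TPM in controls and at 7.24, 7.55, 7.43 and 7.87 TPM in mutants, a log2 change of 0.20 (SE 0.049, limma adjusted p = 0.0171). The gene col6a4a (ENSDARG00000079752) stood at 3.31, 3.41, 3.62 and 3.28 TPM in controls and at 4.33, 5.11, 4.87 and 4.86 TPM in mutants, a log2 change of 0.39 (SE 0.0624, limma adjusted p = 0.00164). No mutant library of these genes fell within the control range. COL6A3 (ENSDARG00000077139), the α3 chain, stood at 7.21, 4.78, 5.27 and 7.84 TPM in controls and at 7.85, 6.35, 6.23 and 5.74 TPM in mutants. Its replicates were widely spread, and its interval of -0.24 to 0.38 holds the changes of both col6a1 and COL6A2.

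Type XXVIII held the only gene called lower. It is a collagen with von Willebrand factor A domains, like type VI, and in mouse it surrounds glial cells of peripheral nerves. The gene col28a2a (ENSDARG00000076321) stood at 63.2, 61.3, 63.3 and 64.7 TPM in controls and at 47.4, 50.9, 47.6 and 52.8 TPM in mutants. All mutants were below all controls, at a ratio of 0.787 and a log2 change of -0.34 (SE 0.0386, limma adjusted p = 0.00021). It was the most abundant gene of the other types, with means of 63.1 and 49.7 TPM, so that the summed level of that group overlapped although 5 of its members were higher. The related col28a1a (ENSDARG00000077084) stood at 3.57, 2.73, 3.63 and 3.47 TPM in controls and at 3.95, 4.15, 3.66 and 4.1 TPM in mutants, above the controls in every library, and did not pass (limma adjusted p = 0.113).

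Among the fibril-associated collagens, 1 copy of COL12A1 (ENSDARG00000078322) was higher. It stood at 18.6, 14.8, 18.6 and 18.9 TPM in controls and at 20.6, 23.5, 21.0 and 24.1 TPM in mutants, with no overlap and a log2 change of 0.32 (SE 0.0804, limma adjusted p = 0.0182). Without mutant replicate 2 it did not pass (limma adjusted p = 0.0507). The other copy (ENSDARG00000019601) stood at 6.64, 6.53, 7.15 and 7.07 TPM in controls and at 6.13, 6.64, 5.48 and 6.01 TPM in mutants. It overlapped and did not pass (log2 change -0.15, limma adjusted p = 0.102). The type XIV genes did not pass either: col14a1b stood at 22.2, 24.7, 26.1 and 25.7 TPM in controls and at 25.1, 24.8, 25.01 and 27.5 TPM in mutants, and COL14A1 was at 6.58 ± 0.509 and 6.27 ± 0.717 TPM. Type XVI, as col16a1, averaged 18.9 ± 0.661 and 21.7 ± 2.58 TPM (limma adjusted p = 0.0911), with mutant replicates 2 and 4 at 25.01 and 22.6 TPM and replicates 1 and 3 at 19.7 and 19.6 TPM. It passed under median-of-ratios scaling (limma adjusted p = 0.0487). The membrane collagens col23a1a and col23a1b, with ratios of 1.15 and 0.882, and col21a1, with a ratio of 1.25, did not pass.

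**Figure D2:**
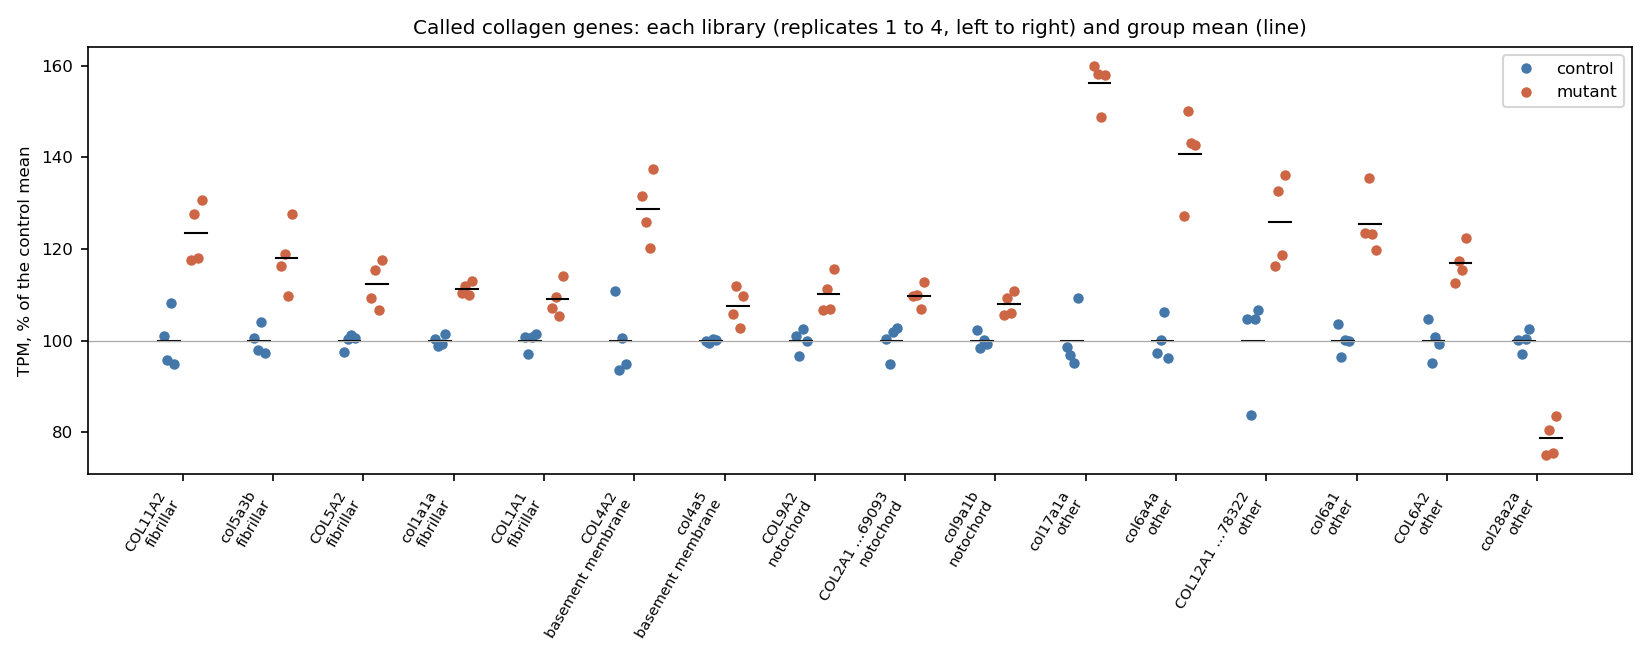
TPM of the 16 called collagen genes in every library as a percentage of the gene's control mean (points, replicates 1 to 4 from left to right; blue control, orange mutant; black lines are group means). For each gene the 4 mutant points lie outside the range of the 4 control points; the ratio of mutant to control mean lies between 1.08 and 1.29 for most, at 1.41 for col6a4a and 1.56 for col17a1a, and at 0.787 for col28a2a.

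Chains that share a molecule, and duplicated copies of a gene, were compared by their ratio within each library. The 19 ratios, 10 between copies and 9 between partner chains, were chosen after the values of the single genes were seen. In an exact permutation test, two-sided over the 8 libraries, 6 reached p = 0.0286, the smallest that 4 against 4 libraries allow, and after adjustment over the 19 the smallest was p = 0.0905, so none passed. With that floor, a ratio could pass the adjustment only if many more than 6 of the 19 reached it. The test therefore cannot decide about single ratios. Those 6 ratios had no overlap between groups. Among single genes, 11.3% of all tested lay wholly above the controls and 14.8% wholly below. The matching share over ratios of other gene pairs was not worked out, so the 6 have no like background. In each of the 6 the first gene was called higher and the second was not, so they are no separate evidence beside the single-gene calls. The ratio of col1a1a to COL1A2 was 1.80, 1.82, 1.74 and 1.75 in controls and 1.91, 1.93, 1.92 and 1.88 in mutants. The ratio of COL5A2 to COL5A1 went from 1.34 ± 0.0277 to 1.46 ± 0.0479, and that of COL9A2 to col9a3 from 1.35 ± 0.0266 to 1.43 ± 0.0235 (SD, n = 4 each). Between copies, the COL2A1 ratio (ENSDARG00000069093 to ENSDARG00000011407) was 1.61 ± 0.0331 in controls and 1.73 ± 0.0380 in mutants, and that of col17a1a to col17a1b was 1.84 ± 0.195 and 2.3 ± 0.107. The 2 COL12A1 copies (ENSDARG00000078322 to ENSDARG00000019601) differed most, with ratios of 2.80, 2.27, 2.60 and 2.68 in controls and 3.37, 3.54, 3.84 and 4.02 in mutants. The ratio of col1a1a to COL1A1 was 1.89 ± 0.0259 and 1.93 ± 0.0411, and that of COL11A1 to col11a1b was 7.29 ± 0.109 and 7.31 ± 0.173, and both overlapped.

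**Figure D3:**
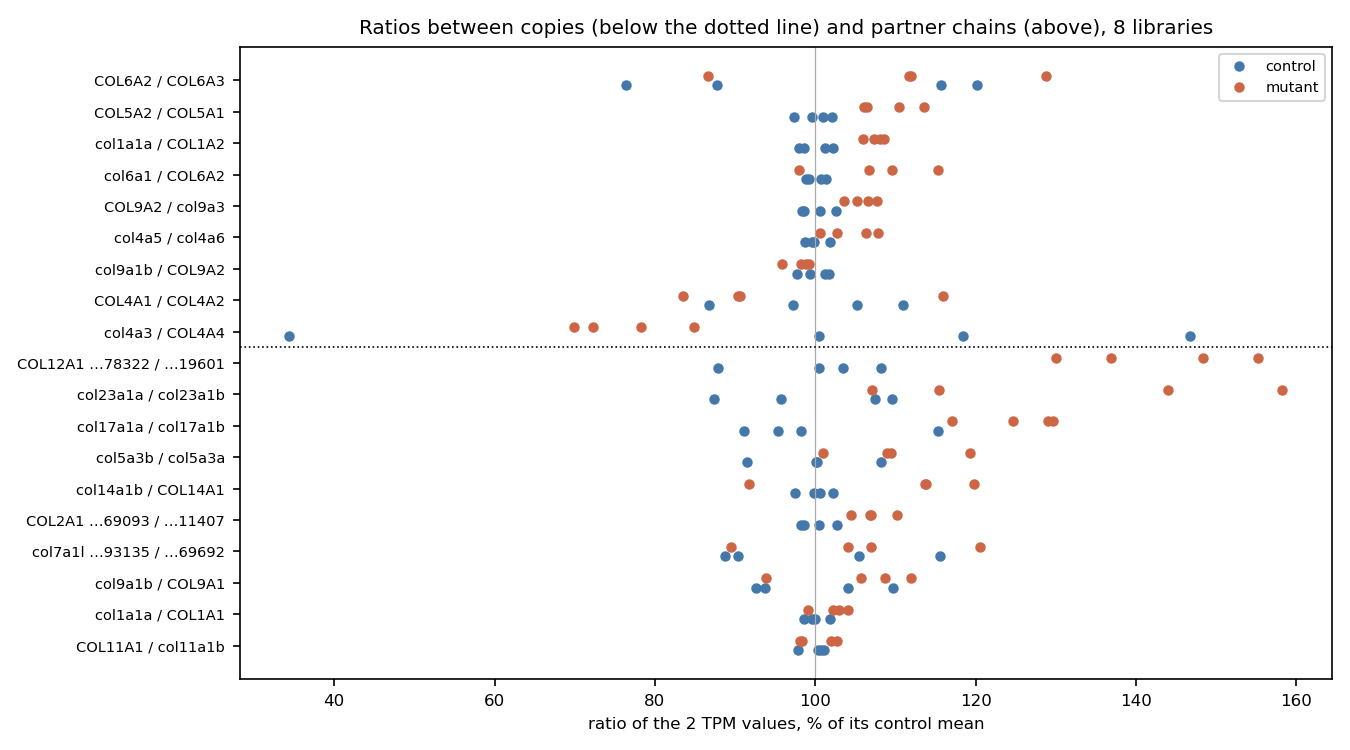
Ratio of the TPM of 2 collagen genes in every library, as a percentage of the mean control ratio (points; blue control, orange mutant), for 10 pairs of copies (below the dotted line) and 9 pairs of partner chains (above it). The groups do not overlap for 6 of the 19 pairs, each a gene called higher over one not called. The COL12A1 copies are the farthest apart, with a ratio of 2.59 in controls and 3.69 in mutants on average.

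Among genes that fold and modify collagen chains in the endoplasmic reticulum all calls were downward. Of 21 chaperones and modifying enzymes tested, 11 were lower and 0 higher, where 13.3% of all genes were lower (11.6% and 10.8% under the other scalings), with a median log2 change of -0.15. SERPINH1 (ENSDARG00000019949), the collagen chaperone Hsp47, fell from 333 ± 7.43 to 93.9 ± 0.805 TPM (limma adjusted p = 5.39e-11), and its copy (ENSDARG00000075954) from 63.7 ± 2.66 to 51.0 ± 1.16 TPM (limma adjusted p = 0.000181). The prolyl 4-hydroxylase genes P4HA1 (ENSDARG00000071082) and P4HA2 (ENSDARG00000010085), whose enzymes stabilise the triple helix, fell from 21.4 ± 0.263 to 11.2 ± 0.905 TPM and from 24.5 ± 0.931 to 15.5 ± 0.629 TPM (SD, n = 4 each). The list did not fall as a whole, and 10 of its genes were not called. Among these were p4ha1a (ENSDARG00000033537), at 17.3 and 16.9 TPM on average, and PPIB, the most abundant of the list, at 965 and 966 TPM. Of 17 genes for the export of large cargo 6 were lower and 0 higher, against the same 13.3%, among them mia3, the collagen receptor TANGO1, at a ratio of 0.828, TMED2 at 0.894 and the coat genes SEC24D at 0.859 and sec23a at 0.878. Between 3 and 5 of the export genes were called with a single library left out, and 3 without mutant replicate 1.

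The lists of genes acting outside the cell are short, and their counts stand beside 9.32% of all genes higher and 13.3% lower. Of 15 genes for propeptide cleavage and crosslinking 3 were higher and 0 lower, namely the lysyl oxidase genes LOXL1 (1.35-fold) and loxl2a (1.17-fold) and the procollagen protease gene ADAMTS3 (1.23-fold). Of 12 collagen receptor genes 5 were higher and 0 lower. These were the integrin gene ITGA1 (1.44-fold), the discoidin domain receptor gene DDR1 (1.42-fold) and 3 genes listed as ITGB1. Of the latter, ENSDARG00000022689 changed 1.3-fold, ENSDARG00000071863 1.17-fold and the most abundant, ENSDARG00000104484, 1.09-fold. A further gene listed as ITGB1 (ENSDARG00000053232) averaged 24.4 and 24.1 TPM and did not pass. Of 10 genes for collagen breakdown and its inhibitors 3 were higher and 2 lower. The cathepsin gene CTSK and the gelatinase gene MMP9 fell, to ratios of 0.623 and 0.706, whereas both TIMP2 copies were higher, at 1.19-fold and 1.18-fold. The remaining call was the collagenase gene mmp13a, which averaged 0.815 ± 0.23 TPM in controls and 1.63 ± 0.193 TPM in mutants. It reached the limit of 1 TPM only through the mutants, so its call supports no direction for the list. Without it the 2 higher genes were the TIMP2 copies, which encode inhibitors, and the 2 lower ones were CTSK and MMP9. The 5 genes not called included MMP2, the most abundant of the list, at 42.9 and 44.0 TPM. The others were the MMP14 copies, at ratios of 0.989 and 0.994, and the MMP15 copies, at 1.16 and 1.15. Whether collagen breakdown changed was not tested.

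Of 25 basement membrane partner genes 4 were higher and 0 lower, against 9.32% of all genes higher. The 4 were laminin chains: LAMB1 (ENSDARG00000045524, 1.26-fold), lamc3 (1.26-fold), lamb4 (1.17-fold) and lama4 (1.11-fold). Other laminin chains were among the 21 partners not called. They included the most abundant chain, lamc1, at 31.1 and 31.3 TPM on average, and another LAMB1 copy (ENSDARG00000101209), at 20.4 and 21.8 TPM. With a single library left out between 1 and 3 of the 25 partners were called, 1 of them without mutant replicate 1 or mutant replicate 2 and 2 without control replicate 1, 2 or 4 or mutant replicate 4. Of 35 fibril-associated and cartilage matrix genes 17 were higher and 1 lower, against 9.32% and 13.3% of all genes, with a median log2 change of 0.15. MATN3 (ENSDARG00000069245) and the actinodin genes and2, and3 and and1 of the fin fold led these, at 1.82-fold, 1.65-fold, 1.6-fold and 1.48-fold, and the gene that fell was si:ch211-43f4.1, which RefSeq lists as a synonym of comp, at a ratio of 0.869. Of 19 transcription factor genes that act on collagen genes or the cells making them 2 were higher, SOX5 (1.17-fold) and a SOX9 copy (ENSDARG00000043923, 1.09-fold). Both this count and the next are near the shares of all genes, 9.32% higher and 13.3% lower, and are no result about the list. Another 3 were lower, twist1a at a ratio of 0.73, twist2 at 0.787 and PAX1 (ENSDARG00000073814) at 0.767. Their number of calls lay between 2 and 5 with a single library left out, and was 2 without control replicate 2, 3 without control replicate 1 or 4 or mutant replicate 1, 2 or 4.

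**Figure D4:**
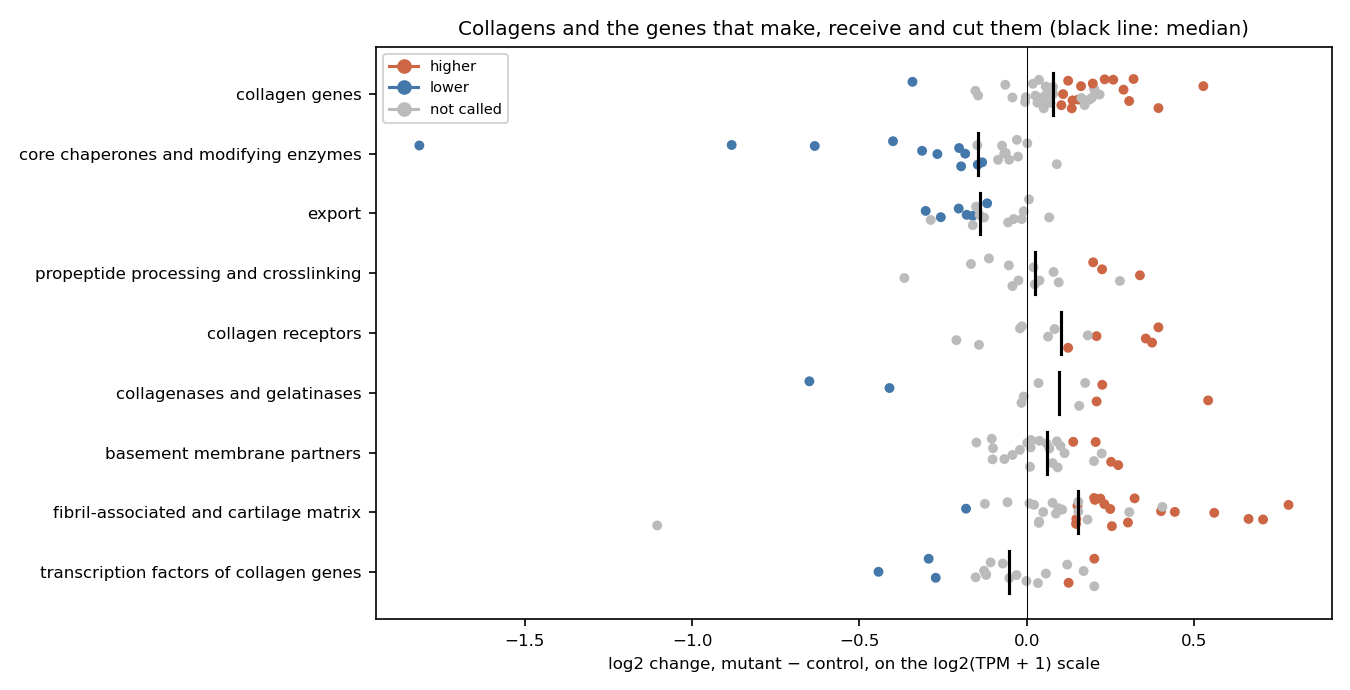
Log2 change (mutant minus control, on the log2(TPM + 1) scale) of the 45 collagen genes and of the tested members of 8 lists of collagen-related genes (points, spread vertically for legibility; orange higher, blue lower, grey not called); black lines are medians. The medians of the chaperone and export lists lie at -0.15 and -0.14, and those of the collagens and of the fibril-associated list at 0.08 and 0.15.

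The marker lists that follow hold few genes, and 9.32% of all genes were higher. Of 5 fin fold markers tested 3 were higher and 0 lower, all of them actinodins, and the summed level of the list was 175 to 185 TPM in controls and 270 to 284 TPM in mutants, while fras1 and HMCN1 did not pass. Of 5 fibroblast markers LUM (1.11-fold) and FBLN1 (1.14-fold) were higher and 0 were lower, with sums of 159.7 to 169 TPM and 166 to 174 TPM. Of 9 tenocyte and sclerotome markers a TNC copy (ENSDARG00000078362) and a THBS4 copy (ENSDARG00000102777) were higher, at 1.27-fold each, with sums of 101.9 to 106 and 101.5 to 112 TPM. The more abundant copies, TNC ENSDARG00000021948 at 33.5 and 36.2 TPM and THBS4 ENSDARG00000020072 at 19.8 and 21.1 TPM, did not pass. The actinodins, LUM, TNC and THBS4 were also counted in the fibril-associated list, so these marker calls are no separate evidence. Likewise lamb4 and the SOX9 copy were counted both as markers and in a list above. The 3 endothelial markers did not pass, with sums of 21.6 to 23.0 and 21.8 to 24.4 TPM, and of 6 osteoblast markers none reached 1 TPM, with sums of 1.49 to 2.05 and 1.33 to 2.85 TPM. The part of these cell types in the collagen values was not tested.

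The remaining 12 collagen symbols lay below 1 TPM. The gene just inside the limit was col21a1, with a mean of 1.14 TPM, and the gene just outside was COL8A2, with 0.894 TPM. The type X genes, markers of hypertrophic cartilage and early bone, were both listed at 0.11 TPM or less in every library. Also below the limit were col5a2b, col18a1b, col27a1b, COL8A1 (ENSDARG00000003533), col28a1b, col28a2b, col6a4b and 2 genes listed as col19a1. When genes of any level were tested, 1 of these 12 was called. The col19a1 gene ENSDARG00000096073 stood at 0.25, 0.44, 0.26 and 0.34 TPM in controls and at 0.62, 0.81, 0.75 and 0.56 TPM in mutants. Its groups did not overlap (log2 change 0.35, limma adjusted p = 0.0111), at a level where the log2(TPM + 1) scale understates the change.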

How the data were processed

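RNA from whole zebrafish larvae was sequenced in 8 libraries, 4 controls and 4 mutants, grouped by the sample titles. The authors deposited a table of TPM per Ensembl gene and library. Per the submitters' processing notes, the tools were STAR 2.7.3a for alignment and RSEM 1.3.1 for quantification, with the genome build GRCz11. RSEM divides reads between similar copies by an estimate, and the sources used here do not state strandedness, so duplicated and overlapping genes are uncertain. Symbols came from a table that named 29201 of 32520 identifiers (89.8%).

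The test was limma 3.58.1 in R 4.3.3 (two-sided, moderated by eBayes with a trend over mean level) on log2(TPM + 1). It covered 16560 genes averaging 1 TPM or more, with Benjamini-Hochberg adjustment over all of them, and it was tested on simulated data. Changes are mutant minus control on that scale, and folds are ratios of mean TPM. TPM holds no read number, so depth is unknown. Permutation tests used scipy 1.17.1, and plots matplotlib 3.10.9.

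The collagen genes and the lists were chosen with earlier results of these data known. Values per library are given for called genes with the 6 smallest adjusted p of their group or a change of at least 0.4, for the 2 most abundant of each group, and for copies and partner chains of those; the other members were named after their values were seen. From the lists, the 4 called genes with the smallest adjusted p and members against the majority are named. Other genes of a list, called or not, and single cell type markers were named after their values were seen. Alternatives were other pseudocounts, filters and scalings, a fit without the trend, replicate number as a block, and each library left out. No batch is given by the labels.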

Additional observations from a re-analysis of the deposited data

Results flagged for a closer look

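In 4 cases a single library lay far from the other 3 of its group, measured as its gap to the nearest library over the range of the group. All 57 collagen symbols were looked at in both groups, 114 groups in all, and chance alone picks out about 1 in 20. COL1A1 (ENSDARG00000035809) stood at 159.8 TPM in control replicate 2, against 166 TPM in the next lowest control. COL12A1 (ENSDARG00000078322) stood at 14.85 TPM in the same library, against 18.6 TPM. The gene col14a1b stood at 27.54 TPM in mutant replicate 4, against 25.1 TPM in the next highest mutant, and col6a4b, below the expression limit, at 0.54 TPM in that library, against 0.04 TPM.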

How the results depend on the processing

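Over the alternatives run, between 11 and 18 collagen genes were called higher (15 as reported) and 1 lower. The 9 genes called higher in every alternative that tested them, and col28a2a, called lower in all 16, were among them; 0 of the called genes changed sign. A further 6 lost their call in at least 1 alternative, col4a5 in 9 of 16, COL4A2 in 5 of 15, col9a1b in 2, and COL1A1 (ENSDARG00000035809), COL6A2 and COL12A1 (ENSDARG00000078322) in 1 each. With a replicate block 11 were higher and 12 of the 16 calls were kept. Lost were col4a5, COL4A2, col9a1b and COL6A2, at limma adjusted p = 0.0793, 0.0618, 0.0502 and 0.0583. Over all genes the block gave 1171 higher and 1761 lower calls, against 1543 and 2202. Same-numbered libraries did not deviate together (correlations of -0.03 to -0.10), and no library correlated best with its own number. Deviations were taken from each group's own mean, which holds such correlations near 0 on average. Whether the numbers pair libraries was therefore not settled. Basement membrane collagens called higher numbered 0 with the replicate block, 1 without the trend, 1 among genes of at least 5 TPM, where fewer were tested, and 0 to 2 with 1 library left out. Among genes of at least 5 TPM, 3 of 10 other collagens were called higher. Called in either direction were 1 of 8 processing genes, 3 of 6 receptors and 2 of 16 basement membrane partners. So were 3 of 6 genes of the list of breakdown genes and their inhibitors. At that limit 11.8% of all genes were higher and 18.1% lower. The block left 1 of 25 basement membrane partners and 2 of 19 transcription factors, where 7.07% of all genes were higher and 10.6% lower. With 1 library left out these counts ran from 1 to 3 partners, 3 to 5 export genes and 2 to 5 transcription factors. The signs of uncalled genes near 0 turned: col7a1 to 0.0101 and 0.0162 and col7a1l (ENSDARG00000069692) to 0.0117 and 0.0179 under median-of-ratios scaling and rescaling. Leaving out 1 library gave -0.0804 to 0.0754 for col7a1, -0.0678 to 0.0639 and -0.0192 to 0.20 for the col7a1l copies ENSDARG00000069692 and ENSDARG00000093135, -0.0481 to 0.12 for col4a3, -0.0143 to 0.0483 for col15a1b, -0.14 to 0.0665 for col24a1, -0.000291 to 0.0466 for col8a1a, -0.00903 to 0.0715 for COL9A1 and -0.0358 to 0.17 for COL6A3. The cause was not tested. Depth is unknown and limits genes of a few TPM most.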
